A study of Gallus gallus with 9 samples.

Results

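The olfactory placode of the chick embryo at Hamburger and Hamilton stage 20 (HH20) was compared with the same tissue at HH18, the later of the 2 steps between the stages sampled. HH stages order chick embryos by their outward form. Placodes had been dissected at HH16, HH18 and HH20, with 3 samples per stage that the labels call biological replicates, and each sample was read on 1 Affymetrix chicken array. The labels name no genotype, strain, treatment or sex of the embryos, and they do not say how many embryos went into a sample. The 6 arrays of HH18 and HH20 are compared here, and the 3 HH16 arrays were normalized and filtered with them, and they enter the shared estimate of the spread, the levels given beside named genes and the comparison of the later step with the earlier one. Of 37693 chicken probe sets, 24489 lay above the 40th percentile of their array on at least 3 of the 9 arrays and were tested. Of these, 18873 carried exactly 1 annotated gene symbol and stood for 10616 of the 13008 genes on the array, each gene represented by its probe set with the highest mean level. These 10616 genes, and 76 lists of gene families and pathways among them, are described below.

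The olfactory placode is a thickened patch of head ectoderm that sinks in to form the nasal pit. It gives rise to the olfactory sensory neurons, to supporting and respiratory epithelium of the nose, and to migrating neurons that leave along the olfactory nerve, among them those that make gonadotropin-releasing hormone (GnRH). Secreted signals of the FGF, BMP, WNT and retinoic acid families pattern the pit into sensory and non-sensory regions, Notch signalling holds cells as progenitors, and basic helix-loop-helix (bHLH) factors drive them to become neurons.

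A level below is the normalized log2 level of a gene, that is log2 of the deposited intensity plus 16, quantile normalized over the 9 arrays. A change is the difference HH20 minus HH18 of such levels with its standard error (SE), and a level of a stage is given with its standard deviation (SD, n = 3). A gene is said to have risen or fallen only where limma gave an adjusted p under 0.05, with Benjamini-Hochberg adjustment over all 24489 probe sets, and every adjusted p below is of this kind. Levels of different genes are not comparable, because probe sets differ in brightness.

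The tissue label was checked against 19 placode markers on the array, such as DLX3, DLX5, EYA2 and PAX6. Of the 19, 18 lay above background on all 6 arrays, where background is set, for each array, at the 99th percentile of its probe sets for viruses. Their summed intensity was 9580 to 9834 at HH18 and 9552 to 10151 at HH20. For this sum, and for the intensities of marker genes below, normalized levels were turned back to the linear scale. Summed signal as deposited ran from 3693919 to 6089094 among the 6 arrays. HH18 replicate 2 stood apart: its background reached 13.9, against 6.17 to 7.62 on the other 5 arrays, and 46.9% of its chicken probe sets lay above background, against 52.5% to 59.1%. Array values correlated at 0.984 to 0.988 within HH18, at 0.991 to 0.993 within HH20 and at 0.985 to 0.989 between the stages. Calls are therefore given with and without HH18 replicate 2 where it decides them.

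Genes of the sex chromosomes shifted as groups between HH18 and HH20 and are given before the other results. In birds, W is the chromosome that only females carry, and females have a single Z. By the gene table that RefSeq gives for GRCg7b, 15 of the tested genes lay on W, and all 15 were higher at HH20 by sign, with a median change of 0.35 and a range from 0.02 to 1.07. Only 1 of them rose, LOC107049459, an uncharacterized protein-coding gene. It read 8.53, 8.43 and 8.80 on the HH18 arrays and 9.21, 9.45 and 9.48 on the HH20 arrays, a change of 0.80 ± 0.15 (limma, adjusted p = 0.028). HINTW, the W-linked relative of a gene for a nucleotide-binding protein, changed by 0.21 ± 0.10 and did not pass (adjusted p = 0.52). The mean level of the 15 genes was 6.82 to 6.96 on the HH18 arrays and 7.21 to 7.38 on the HH20 arrays, so these groups did not overlap, while the HH16 arrays spread from 6.69 to 7.34. Of 486 tested genes on Z, 35.6% were higher at HH20 by sign, with a median change of -0.08, 2 rises (MEGF10 and ISL1) and 1 fall (HAPLN1), against 50.8% and a median of 0.00 for the 10012 genes on other chromosomes. This comparison by chromosome was chosen after values were seen.

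A fit with the mean level of the W genes as a covariate, also added after the data were seen, called 37 probe sets in place of 88. It kept all 50 called genes in their direction and 16 of them past the threshold, 13 that rose and 3 that fell. The 16 were SST1, PLA2G10L, GATA3, ANXA8L1, BAMBI, TMEFF2, S100A1, FABP6, ISL1, FGF18, CHGA, STMN2, TAGLN3, TNFSF13B, SH3BGR and HAPLN1. The W level did not overlap between HH18 and HH20, so this fit could not fully separate it from stage. Some calls were lost with a wider SE at nearly the same change, as in DIO2 (0.89 ± 0.14 to 0.87 ± 0.20). Others were lost with a smaller change, as in ASNS (1.24 ± 0.20 to 0.61 ± 0.19). A lost call by itself thus does not show that a change followed the W level. The part of embryo sex in any single result was not tested.

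**Figure D1:**
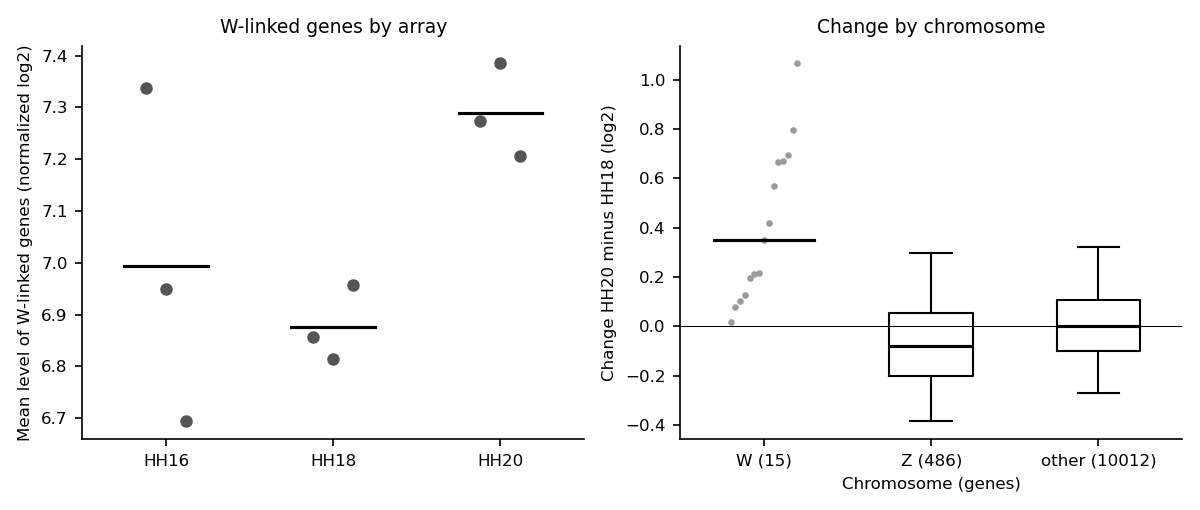
Left, mean normalized log2 level of the 15 tested W-linked genes on each of the 9 arrays (points) with the mean of each stage (bar). The 3 HH20 arrays lie between 7.21 and 7.38, above the 3 HH18 arrays. Right, change HH20 minus HH18 of the W-linked genes (points, bar at the median of 0.35) and of the genes on Z and on other chromosomes (box from the 25th to the 75th percentile, line at the median, whiskers spanning the central 90% of genes).

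The step from HH18 to HH20 was small for most genes. The central 50% of the 10616 genes changed by -0.10 to 0.11, the 1st and the 99th percentiles were -0.45 and 0.55, and the median SE of a change was 0.14. Of 24489 probe sets, 88 were called (0.359%), 62 higher and 26 lower, and 63 of the 88 carried 1 symbol. At an unadjusted p under 0.05, 2271 probe sets passed. Among the genes, 38 rose (0.358%) and 12 fell (0.113%), and all 50 had their 3 HH20 arrays on one side of their 3 HH18 arrays. Counts of called genes in the lists below are to be set beside these shares of all genes. Over all genes, 910 (8.57%) had every HH20 array above every HH18 array and 777 (7.32%) had every HH20 array below. At least a 2-fold rise was shown by 11 genes, 10 of them called, and a 2-fold fall by 1 called gene, TNFSF13B. The remaining rise of at least 2-fold was that of the W gene LOC374195, at 1.07 ± 0.28 (adjusted p = 0.15). Of the 50 called genes, 39 changed by less than 2-fold. When genes were ordered by mean level and divided in 4 equal parts, the dimmest part held 2 called genes, the next 21, the third 22 and the brightest 5.

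Arrays had not been scaled to a common level, so the calls depend on how they were aligned. As deposited, without alignment, the median change over the genes was 0.26, and with arrays centred on their medians it was 0.18. As deposited, limma called 10 probe sets, every one higher, and 5 of the 50 genes remained (SST1, PLA2G10L, GATA3, FGF3 and MEGF10). With centred arrays, limma called 90 probe sets, with a share of 96.7% higher where quantile normalization gave 70.5%, and 33 of the 50 genes remained, none of which had fallen. Other settings that moved this share by over 10 percentage points gave 86.7% (a test against a 1.2-fold change), 83.7% (no intensity trend) and 80.9% (a pseudocount of 64). All 50 genes kept their direction in every setting in which they were tested. Without HH18 replicate 2, 25 of the 50 remained called, and 14 remained in all 6 leave-outs of a single array. Those 14 were SST1, PLA2G10L, GATA3, FGF3, KRT14, ANXA8L1, MEGF10, BAMBI, TMEFF2, S100A1, FABP6, ID2, SH3BGR and TNFSF13B.

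**Figure D2:**
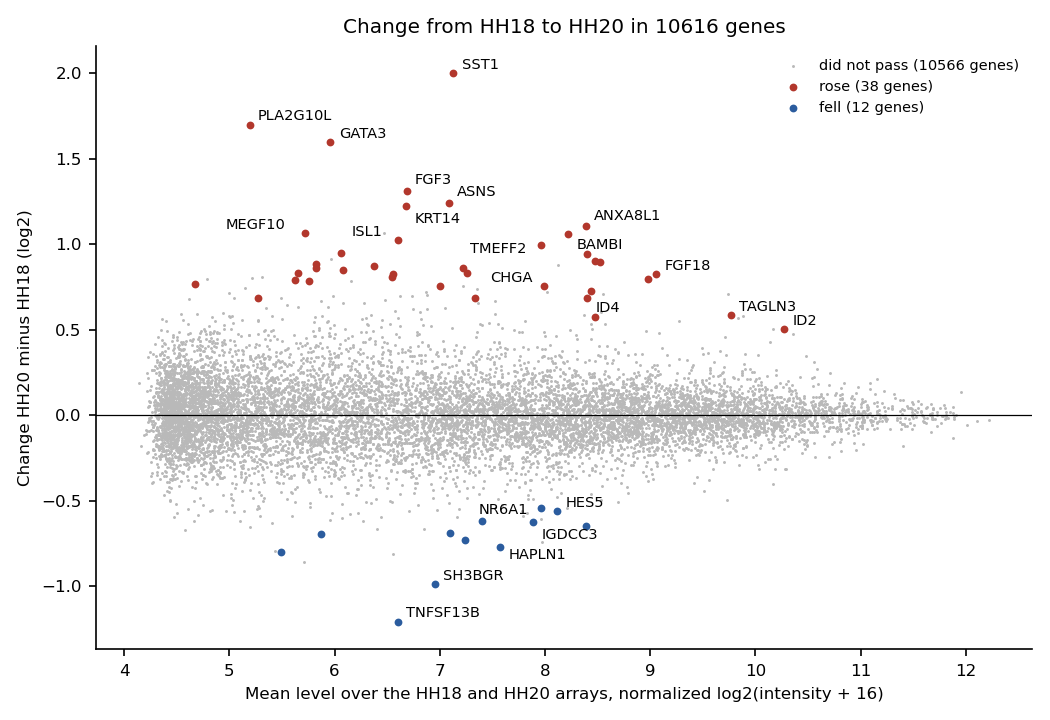
Change HH20 minus HH18 (log2, vertical axis) of the 10616 genes against their mean normalized log2 level (horizontal axis). Each point is 1 gene, with the 38 genes that rose and the 12 that fell in colour and the leading ones named. Of 4 equal parts by mean level over all arrays, the dimmest holds 2 and the brightest 5 of the 50 called genes.

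Genes that respond to BMP signalling included several of the firmest rises. Of 22 tested genes of a BMP response list, 4 rose and 0 fell, against 0.358% rises and 0.113% falls over all genes, and 3 or 4 rose with each array left out. The median of the list was 0.14, against 0.00 over all genes, and 13 of the 22 were higher by sign, against 50.2%. Every HH20 array lay above every HH18 array in 9 members, against 8.57% of all genes. In 1 member every HH20 array lay below, against 7.32%, and the lowest change was -0.39. The list was drawn up with earlier results of these data known, in which BMP genes had stood out, so its direction is no independent evidence.

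GATA3, a zinc-finger transcription factor of non-neural ectoderm and of sensory placodes, read 5.23, 5.48 and 4.78 at HH18 and 6.73, 6.62 and 6.92 at HH20. The lowest HH20 array was thus more than 1 log2 unit above the highest HH18 array, although the HH18 arrays spread widely among themselves. GATA3 rose by 1.60 ± 0.17, or 3.02-fold (adjusted p = 0.00058), from a HH16 level of 4.90 ± 0.16. BAMBI encodes a membrane pseudoreceptor that dampens BMP and TGF-beta signalling and is itself induced by BMP. It read 7.89, 7.72 and 7.47 at HH18 and 8.86, 8.52 and 8.87 at HH20, and rose by 1.06 ± 0.13 (adjusted p = 0.00091). Its HH16 level of 7.78 ± 0.01 lay within the range of the HH18 arrays.

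ID2 and ID4 encode helix-loop-helix proteins without a DNA-binding region, which bind bHLH factors and keep them from DNA. ID2 read 9.96, 10.05 and 10.05 at HH18 and 10.52, 10.55 and 10.50 at HH20, without overlap, and rose by 0.51 ± 0.07 (adjusted p = 0.0036). ID4 read 8.15, 8.03 and 8.0 at HH18 and 8.79, 8.67 and 8.78 at HH20, and rose by 0.69 ± 0.11 (adjusted p = 0.0073), a call that was lost without HH20 replicate 1 and without HH20 replicate 3 (adjusted p up to 0.068). Neither passed with the W covariate, at adjusted p of 0.11 for ID2 and 0.17 for ID4. Their relative ID1 was at -0.00 and did not pass, and ID3 was not above background on any HH18 array. MSX1 and MSX2, homeobox targets of BMP, were at 0.53 ± 0.12 (adjusted p = 0.078) and 0.29 ± 0.17 (adjusted p = 0.64). The inhibitory SMADs SMAD6 and SMAD7 were at 0.54 ± 0.13 and 0.29 ± 0.18, also short of the threshold.

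The BMP ligands themselves did not pass. Of 32 tested ligands, receptors and secreted antagonists, 0 rose and 0 fell by limma, with 20 higher by sign and a median of 0.10. That median turned to -0.04 relative to all genes when arrays were used as deposited or centred on their medians. BMP4 read 6.14, 5.93 and 6.66 at HH18 and 6.12, 6.52 and 6.43 at HH20, groups that overlapped, for a change of 0.12 ± 0.17 (adjusted p = 0.89). BMP7 was at 0.35 ± 0.12 (adjusted p = 0.34) and did not pass. The antagonist noggin, NOG, was above background on 0 of 3 HH18 and 2 of 3 HH20 arrays and did not pass either (adjusted p = 0.42). At an unadjusted p under 0.05, 7 of the 32 were higher and 2 lower, so a miss here does not show that a gene stayed level. The receptors BMPR1A and BMPR1B were at -0.12 and -0.12, BMPR1A above background on 1 of 3 HH18 and 2 of 3 HH20 arrays, and BMPR2 was not above background on any HH18 array.

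Among the activin and TGF-beta genes, 1 of 23 rose, against 0.358% of all genes, and the median was 0.06. That was TMEFF2, a transmembrane protein that carries follistatin-like domains, which read 7.64, 7.54 and 7.21 at HH18 and 8.42, 8.48 and 8.49 at HH20. Its HH20 arrays agreed within 0.1 log2 units and all lay above the HH18 arrays, for a rise of 1.0 ± 0.12 (adjusted p = 0.00093). At HH16 it stood lower still, at 6.57 ± 0.01.

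Among the FGF genes 3 ligands rose, while their receptors and feedback genes did not pass. Of 12 tested genes of the FGF ligand list, 3 rose and 0 fell, against 0.358% and 0.113% of all genes. The median was 0.33, and 6 had all HH20 arrays above all HH18 arrays, against 8.57% of all genes. In each of the 6 leave-outs of a single array, 1 remained called, which was FGF3. FGF3, a ligand active in the inner ear and the head ectoderm, read 6.12, 5.72 and 6.25 at HH18 and 7.36, 7.35 and 7.32 at HH20. The HH20 arrays differed by less than 0.1 log2 units and lay more than 1 unit above the HH18 arrays, a rise of 1.31 ± 0.16 or 2.48-fold (adjusted p = 0.00093). A second probe set of FGF3 was called in the same direction. With the W covariate FGF3 stood at 0.93 ± 0.20 (adjusted p = 0.079).

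FGF8, which is needed in the nasal placode for the olfactory epithelium and, in mouse, for the GnRH neurons, read 7.03, 6.64 and 6.86 at HH18 and 7.52, 7.71 and 7.79 at HH20. The groups did not overlap, but the rise of 0.83 ± 0.17 just passed (adjusted p = 0.0499), and the call was lost when any 1 of the 6 arrays was left out (adjusted p up to 0.25). With the W covariate its change was 0.43 ± 0.21 (adjusted p = 0.59), and at HH16 the arrays read 7.42, 7.38 and 6.67. FGF18, a ligand of the same subfamily as FGF8, read 8.63, 8.72 and 8.60 at HH18 and 9.38, 9.32 and 9.72 at HH20. It rose by 0.82 ± 0.15 (adjusted p = 0.024), a call also lost when any 1 of the 6 arrays was left out (adjusted p up to 0.18). Its change was larger with the W covariate, at 1.24 ± 0.17 (adjusted p = 0.0093).

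The other list members were FGF9 at 0.40, FGF19 at 0.35, FGF13 at 0.32, and FGF16 and FGF12 near 0. FGF10, FGF2 and FGF1 were at -0.14 to -0.18, and none of these genes passed the threshold. FGF12 and FGF13 stay within the cell and are not secreted ligands, but the list counts them. FGF7, not above background on any HH18 array, did not pass either. Of 22 receptors and feedback genes, 0 rose and 0 fell, and the median was 0.02. At an unadjusted p under 0.05, 3 of them were higher and 1 lower. Feedback genes that FGF signalling induces in many tissues were near 0, with DUSP6 at 0.03 ± 0.12, SPRY1 at 0.03 ± 0.14, SPRY2 at 0.11 ± 0.10 and ETV4 at -0.00 ± 0.16. DUSP5, a phosphatase of ERK, was at 0.38 ± 0.12 (adjusted p = 0.27). IL17RD (Sef), a membrane inhibitor of FGF signalling, had the lowest change of the list, at -0.49 ± 0.13 (adjusted p = 0.15).

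**Figure D3:**
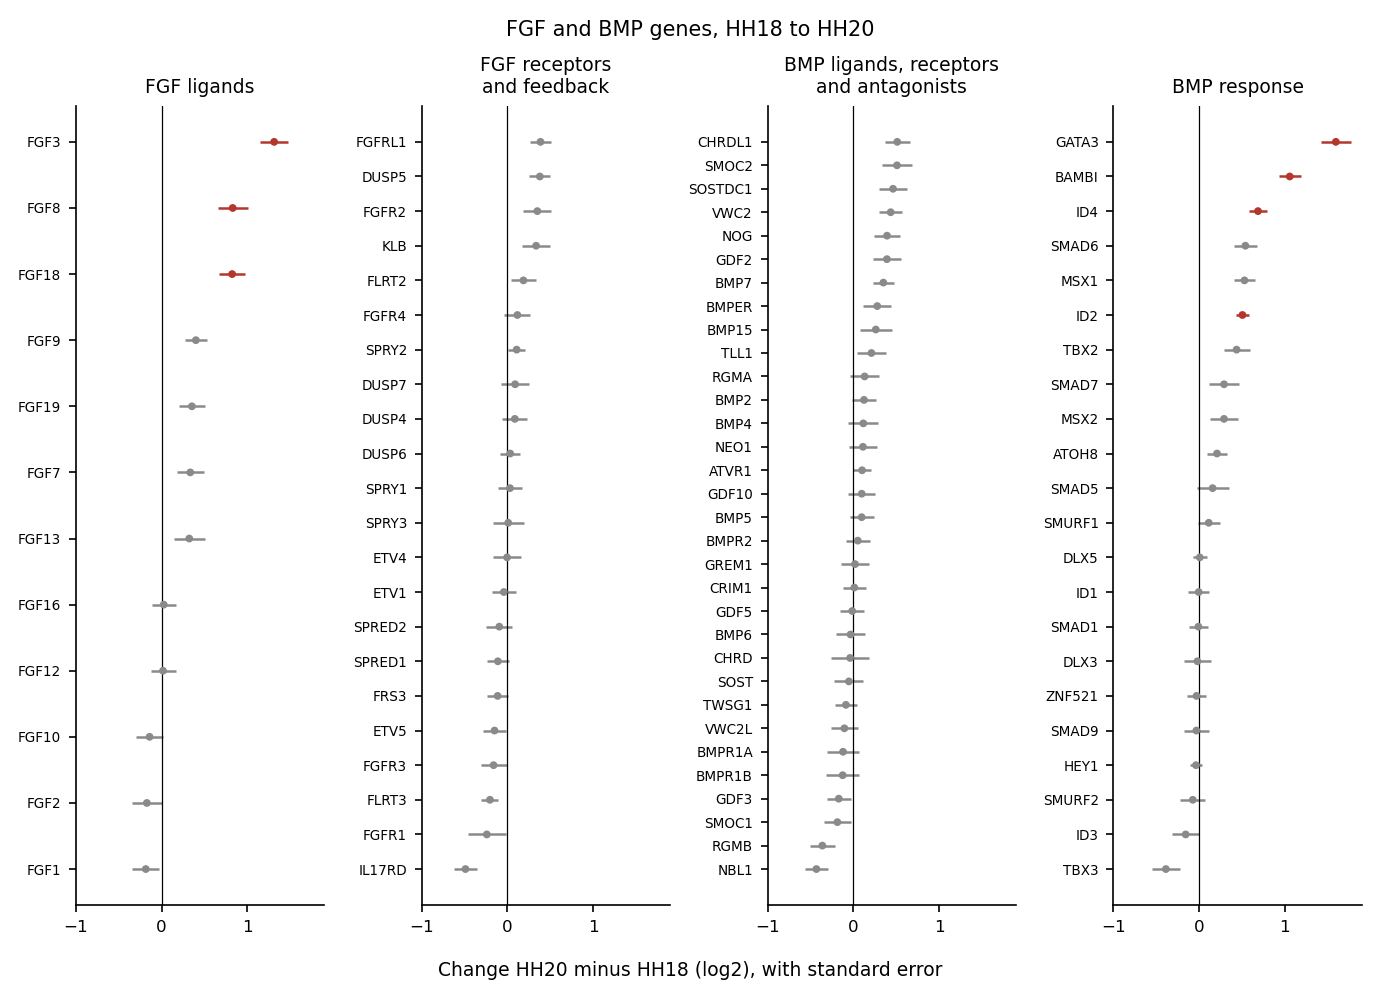
Change HH20 minus HH18 (log2, horizontal axis) with its standard error for every tested member of 4 lists: FGF ligands, FGF receptors and feedback genes, BMP ligands, receptors and antagonists, and BMP response genes. Called genes are red. The called ones are FGF3, FGF8 and FGF18 among the FGF ligands and GATA3, BAMBI, ID2 and ID4 among the BMP response genes.

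Of 52 tested WNT pathway genes, 2 rose and 0 fell, against 0.358% and 0.113% of all genes, with a median of 0.03. WNT4, a secreted WNT ligand, read 5.37, 4.99 and 5.32 at HH18 and 5.90, 5.91 and 6.26 at HH20. NOTUM, a secreted enzyme that inactivates WNT proteins by removing their lipid, read 6.88, 6.95 and 7.16 at HH18 and 7.76, 7.61 and 7.68 at HH20. Neither gene's groups overlapped, and the rises were 0.79 ± 0.16 for WNT4 (adjusted p = 0.041) and 0.69 ± 0.13 for NOTUM (adjusted p = 0.024), where a second probe set of NOTUM was also called. The call of WNT4 was lost when any 1 of the 6 arrays was left out (adjusted p up to 0.24), and that of NOTUM when any 1 array other than HH18 replicate 3 was left out (adjusted p up to 0.16). NOTUM had stood higher at HH16, at 7.48 ± 0.18, than at HH18. The beta-catenin targets AXIN2, APCDD1 and LGR5 were higher by 0.41, 0.46 and 0.44 without passing, and the receptor FZD7 was lower by 0.56 (adjusted p = 0.15). AMER2, a membrane protein that binds the APC tumour suppressor, read 5.83, 5.97 and 6.03 at HH18 and 6.78, 6.97 and 6.69 at HH20. It rose by 0.87 ± 0.13 (adjusted p = 0.0069), and the call was lost only without HH20 replicate 2 (adjusted p = 0.063).

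None of the 17 tested retinoic acid genes passed by limma, although 12 were higher by sign, with a median of 0.14 and 4 higher and 2 lower at an unadjusted p under 0.05. CYP26A1, an enzyme that degrades retinoic acid, read 7.32, 6.73 and 7.06 at HH18 and 7.72, 7.59 and 7.76 at HH20, and its change of 0.66 ± 0.14 did not pass (adjusted p = 0.061). DHRS3, which turns retinaldehyde back into retinol, was at 0.44 ± 0.11 (adjusted p = 0.12). ALDH1A3 and ALDH1A2, which make retinoic acid, were at 0.15 ± 0.09 and 0.08 ± 0.15. RDH10, which makes retinaldehyde, was represented by a probe set at 0.19 ± 0.09 that did not pass, while another of its probe sets was called at 0.58 ± 0.09 (adjusted p = 0.0094). Of 15 hedgehog genes, limma called 0 either way and 1 was higher at an unadjusted p under 0.05.

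Genes of neuronal differentiation and neuronal bHLH genes were mostly higher at HH20, although few passed. Of 39 tested genes of neuronal differentiation, 36 were higher at HH20 by sign, the median was 0.21, and 15 had all HH20 arrays above all HH18 arrays and 0 had them below, against 8.57% and 7.32% of all genes. Only 2 of them rose, STMN2 and TAGLN3, and 0 fell, against 0.358% and 0.113%. The median stayed between 0.14 and 0.24 with any array left out, and relative to all genes it was 0.18 as deposited and centred. Some other lists of neuronal genes lay nearer to all genes, of which 50.2% were higher by sign. Synaptic vesicle and exocytosis genes were higher in 31 of 56, with a median of 0.02. Neurotransmitter receptors were higher in 36 of 63 and immunoglobulin-domain neural adhesion genes in 17 of 30, with medians of 0.02 and 0.01. No member of these lists passed. In bulk tissue, a higher share of neurons and more RNA per neuron cannot be told apart.

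STMN2, which regulates microtubules during axon growth, read 7.96, 8.22 and 8.04 at HH18 and 8.87, 8.68 and 8.86 at HH20, and rose by 0.73 ± 0.12 (adjusted p = 0.0095). TAGLN3, a neuronal actin-binding protein, read 9.49, 9.39 and 9.54 at HH18 and 9.98, 10.07 and 10.12 at HH20, and rose by 0.58 ± 0.10 (adjusted p = 0.016). In both genes the stages were clear of each other, and both had lower levels at HH16, at 7.52 ± 0.17 for STMN2 and 8.95 ± 0.21 for TAGLN3. The call of STMN2 was lost without HH18 replicate 1, HH20 replicate 1 or HH20 replicate 3 (adjusted p up to 0.092), and that of TAGLN3 without HH18 replicate 2 or any 1 HH20 array (adjusted p up to 0.11). The microtubule gene DCX was at 0.24 ± 0.10, the tubulin TUBB3 at 0.31 ± 0.12 and the RNA-binding ELAVL4 at 0.44 ± 0.12, none past the threshold. The lowest member, RUNX1T1, was at -0.10.

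Among 14 proneural and neuronal bHLH genes, 13 were higher by sign, the median was 0.21, and 1 rose, against 0.358% of all genes. That gene, BHLHE22, a bHLH factor of differentiating neurons, read 6.56, 6.63 and 6.67 at HH18 and 7.35, 7.32 and 7.47 at HH20. Both groups were narrow and apart, for a rise of 0.76 ± 0.14 (adjusted p = 0.021), but the call was lost when any 1 array other than HH18 replicate 3 was left out (adjusted p up to 0.14). NHLH2, which in mouse is needed for GnRH neurons, was at 0.75 ± 0.17 (adjusted p = 0.063), with HH18 arrays at 6.56, 6.98 and 6.98 and HH20 arrays at 7.95, 7.50 and 7.34. NEUROG1, the proneural factor of olfactory progenitors, was at 0.58 ± 0.15 (adjusted p = 0.14). NEUROD1 and NEUROG2 were at 0.21 ± 0.15 and 0.20 ± 0.13, and the broadly expressed partners TCF3, TCF12 and TCF4 were at 0.03, 0.01 and -0.20.

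The 2 ISL genes rose among 14 LIM homeodomain factors and cofactors, against 0.358% of all genes, and the median of the 14 was -0.05. ISL1 marks several kinds of sensory, motor and endocrine cells. It read 6.18, 6.31 and 5.77 at HH18 and 7.07, 6.83 and 7.43 at HH20, and rose by 1.02 ± 0.18 (adjusted p = 0.019), with a second probe set called as well. ISL2 read 5.24, 5.54 and 4.92 at HH18 and 6.04, 5.92 and 6.24 at HH20, and rose by 0.83 ± 0.16 (adjusted p = 0.032). In both, HH18 replicate 3 was the lowest array and no HH18 array reached the HH20 range. ISL1 lost its call without HH18 replicate 3, HH20 replicate 1 or HH20 replicate 3 (adjusted p up to 0.14), and ISL2 when any 1 array other than HH18 replicate 2 was left out (adjusted p up to 0.20). LHX2, which olfactory neurons need in mouse, was at 0.52 ± 0.15 (adjusted p = 0.19), and the other 11 members ranged from -0.18 to 0.24.

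The largest change over all 10616 genes was that of SST1, the gene for the peptide somatostatin. It read 5.57, 6.07 and 6.75 at HH18 and 8.13, 7.86 and 8.40 at HH20, after 5.14 ± 0.29 at HH16. The HH18 arrays differed among themselves by more than 1 log2 unit, and the lowest HH20 array still lay about 1 unit above the highest of them. SST1 rose by 2.0 ± 0.23 (adjusted p = 0.00072), and a second probe set was called with it. Among 17 neuropeptide genes it was the only one to pass, and the median of the list was -0.04, or -0.16 relative to all genes as deposited. GAL, the gene for galanin, was at the other end with -0.86 ± 0.19 (adjusted p = 0.056), with HH18 arrays at 6.03, 5.77 and 6.63 and HH20 arrays at 5.31, 5.35 and 5.19. PNOC, for nociceptin, was at -0.60 ± 0.15 (adjusted p = 0.13), and NPY, for neuropeptide Y, at 0.50 ± 0.15 (adjusted p = 0.25).

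CHGA, for the secretory granule protein chromogranin A, was the only one of 16 granule and peptide-processing genes to pass, and the median was 0.08. It read 7.57, 7.56 and 7.72 at HH18 and 8.40, 8.34 and 8.37 at HH20, tight groups with a gap between them. The rise of 0.75 ± 0.15 (adjusted p = 0.043) was lost when any 1 of the 6 arrays was left out (adjusted p up to 0.21), and the HH16 level was 6.80 ± 0.39. SCG2, CADPS and SCG3, which also belong to regulated secretion, were at 0.53, 0.53 and 0.40 without passing. SCN2A, the voltage-gated sodium channel of axons, read 5.93, 6.38 and 6.11 at HH18 and 6.90, 6.90 and 7.05 at HH20. It was the 1 of 82 channel genes to rise, by 0.81 ± 0.14 (adjusted p = 0.016), where 54 of the 82 were higher by sign and the median was 0.12, or 0.03 relative to all genes as deposited. ADAM22, a catalytically inactive member of the ADAM family that binds LGI proteins at synapses, read 5.29, 5.37 and 5.44 at HH18 and 6.14, 6.16 and 6.15 at HH20. Its HH20 arrays lay within 0.02 log2 units of each other, and it rose by 0.78 ± 0.14 (adjusted p = 0.016). Both SCN2A and ADAM22 lost the call without HH18 replicate 1 or any 1 HH20 array (adjusted p up to 0.11 and 0.095).

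**Figure D4:**
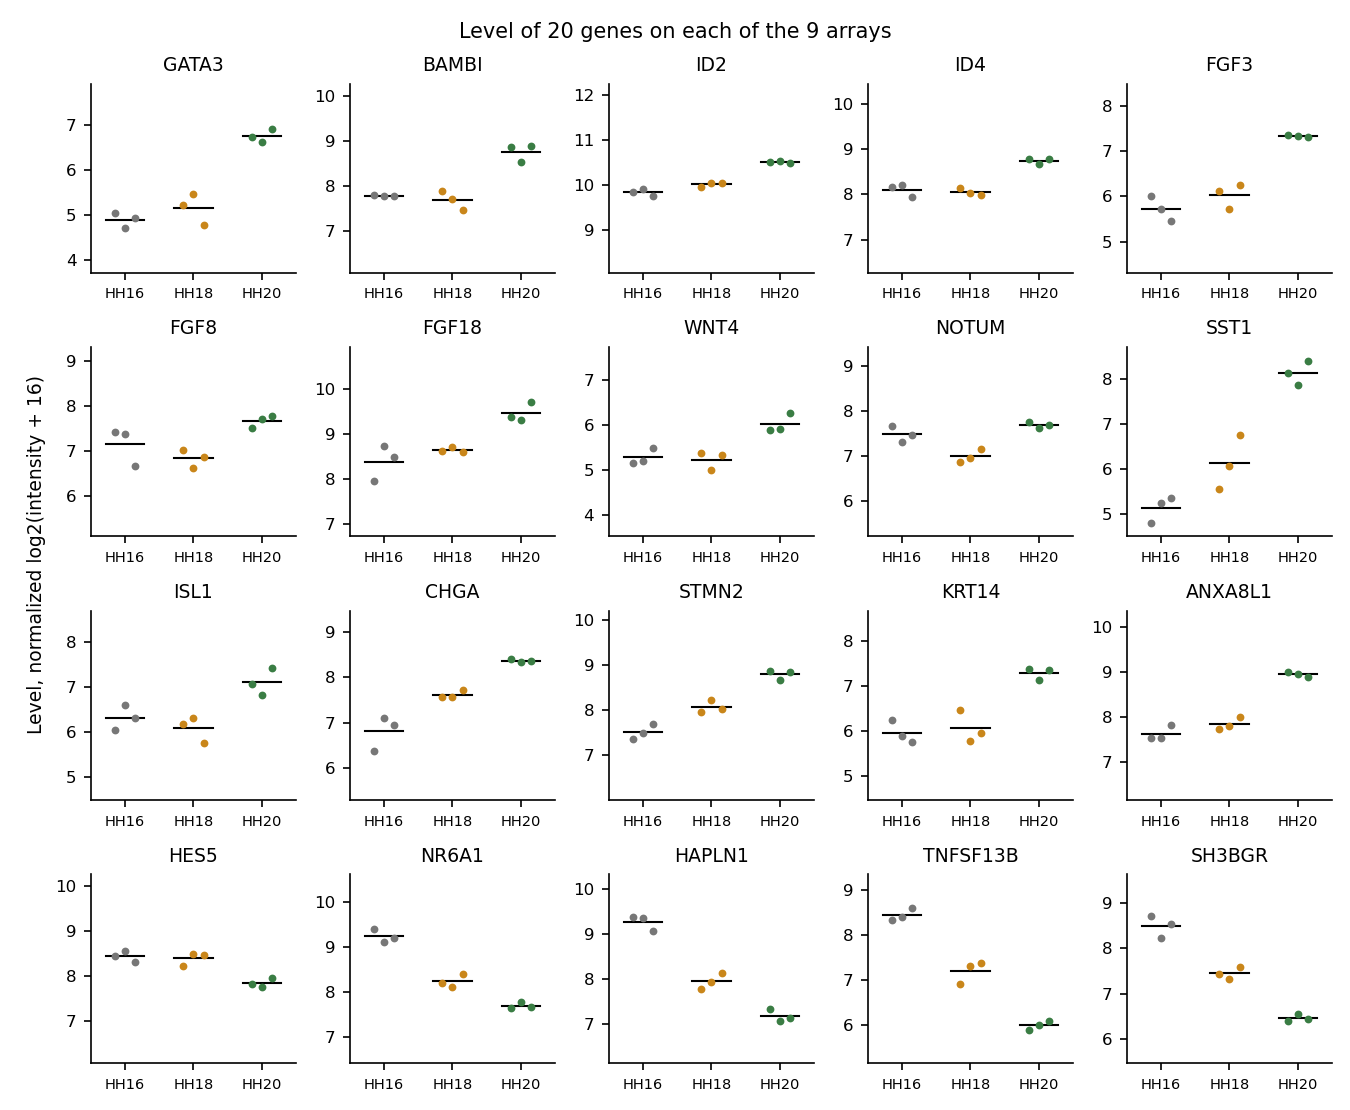
Normalized log2 level (vertical axis) of 20 genes on the 9 arrays, by stage. Points are single arrays, bars are stage means, and every panel spans the same number of log2 units. SST1, GATA3 and FGF3 show the widest gaps between the HH18 and the HH20 arrays, and HES5, NR6A1, HAPLN1, TNFSF13B and SH3BGR run downward.

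GNRH1, the gene for the hormone of the GnRH neurons, did not differ between HH18 and HH20 beyond its spread. It read 8.64, 8.35 and 8.90 at HH18 and 8.30, 8.73 and 8.86 at HH20, overlapping groups with a difference of -0.00 ± 0.15 (adjusted p = 1.0). Of 25 tested genes linked to GnRH neurons or Kallmann syndrome, 1 rose, FGF8, and the median was 0.01. The chemokine receptor CXCR4, which guides migrating neurons, was at 0.35 ± 0.15 (adjusted p = 0.48), above background on 1 of 3 HH18 arrays. Of 21 genes of the olfactory lineage limma called 0, with 4 higher and 0 lower at an unadjusted p under 0.05, and their median of 0.13 turned to -0.02 relative to all genes as deposited. EBF2 was at 0.40 ± 0.14 and MEIS1 at 0.54 ± 0.13, both factors of olfactory progenitors or neurons.

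HES5 was the only one of 25 Notch pathway genes to pass. This bHLH repressor, a direct Notch target that keeps progenitors from differentiating, read 8.23, 8.49 and 8.47 at HH18 and 7.82, 7.76 and 7.94 at HH20, and fell by 0.56 ± 0.11 (adjusted p = 0.042). The groups did not overlap, but the call was lost when any 1 array other than HH18 replicate 1 was left out (adjusted p up to 0.20). The chick has several HES5-like genes, and 1 probe set may not separate near-identical copies. The ligands DLL1 and JAG2 were at -0.43 ± 0.13 and -0.48 ± 0.18, the ligand JAG1 at 0.56 ± 0.16, and the receptor NOTCH1 at 0.01 ± 0.11, all short of the threshold. The median of the list was -0.01.

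Of 37 placodal transcription factors, GATA3 was the only one to pass, and the median was 0.00. DLX5 was at 0.01 ± 0.08 and PAX6 at -0.14 ± 0.10. SOX2, near background and above it on 2 of 3 HH18 arrays, was at -0.00 ± 0.16. IRX2 came closest to passing after GATA3 and MSX1, at 0.68 ± 0.16 (adjusted p = 0.079), above background on 1 of 3 HH18 arrays.

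KRT14, a keratin of the basal layer of stratified epithelium, read 6.47, 5.79 and 5.95 at HH18 and 7.38, 7.14 and 7.36 at HH20. HH18 replicate 1 was the highest of its stage and still below all HH20 arrays, and KRT14 rose by 1.22 ± 0.17 or 2.33-fold (adjusted p = 0.0031). It was the only one of 40 genes of surface and nasal epithelium to rise, 27 of which were higher by sign, with a median of 0.06. KRT14 with the W covariate was at 0.99 ± 0.24 (adjusted p = 0.15). ANXA8L1, an annexin, one of the proteins that bind membranes in the presence of calcium, read 7.73, 7.79 and 7.99 at HH18 and 8.99, 8.95 and 8.89 at HH20. It had among the smallest adjusted p of all genes, 0.00058, for a rise of 1.11 ± 0.12.

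S100A1, a small calcium-binding protein, read 7.79, 7.92 and 8.06 at HH18 and 8.83, 8.68 and 9.11 at HH20, clear of each other, and rose by 0.94 ± 0.12 (adjusted p = 0.0013) from 7.08 ± 0.05 at HH16. These 2 were the only ones of 16 annexin and S100 genes to pass, against 0.358% rises over all genes, and the median was 0.10. PLEK2, a pleckstrin-domain protein of the cell cortex, read 5.61, 5.92 and 5.43 at HH18 and 6.40, 6.52 and 6.59 at HH20, and rose by 0.85 ± 0.16 (adjusted p = 0.023). SEMA3D, a secreted semaphorin that guides axons, read 5.71, 5.63 and 5.43 at HH18 and 6.68, 6.28 and 6.66 at HH20, and rose by 0.95 ± 0.15 (adjusted p = 0.0088), the only one of 22 semaphorin, neuropilin and plexin genes to do so. PLEK2 kept its call when HH18 replicate 2 was left out and lost it when any other array was (adjusted p up to 0.15), and SEMA3D lost it without HH20 replicate 1 or 3 (adjusted p up to 0.090).

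The 2 nidogens, which join laminin to collagen IV in basement membranes, moved in opposite directions. NID1 read 8.27, 8.22 and 8.08 at HH18 and 8.97, 8.68 and 8.65 at HH20, and rose by 0.57 ± 0.11 (adjusted p = 0.028). A dimmer probe set of NID1 had the opposite sign, at -0.11 ± 0.16, and did not pass (adjusted p = 0.90). NID2 read 6.20, 6.42 and 6.02 at HH18 and 5.62, 5.46 and 5.48 at HH20, and fell by 0.69 ± 0.14 (adjusted p = 0.049). Neither gene's stages overlapped, but the call of NID1 was lost when any 1 of the 6 arrays was left out (adjusted p up to 0.23) and that of NID2 when any 1 array other than HH18 replicate 3 was left out (adjusted p up to 0.20). They were the only calls among 46 genes of integrins, laminins and basement membrane, whose median was 0.04. The laminin LAMB4 and fibronectin, FN1, did not pass, at 0.91 ± 0.19 (adjusted p = 0.051) and 0.47 ± 0.10 (adjusted p = 0.052).

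HAPLN1, which links hyaluronan to proteoglycans, read 7.79, 7.95 and 8.14 at HH18 and 7.33, 7.09 and 7.15 at HH20, after 9.27 ± 0.17 at HH16. Every array of a later stage lay below every array of the stage before it, and the fall from HH18 to HH20 was 0.77 ± 0.12 (adjusted p = 0.0094), lost without HH20 replicate 2 or 3 (adjusted p up to 0.070). It is the one called gene on Z that fell, and with the W covariate it was at -0.95 ± 0.17 (adjusted p = 0.028). None of the other 30 hyaluronan and proteoglycan genes passed, and the median of the list was 0.05. The proteoglycan OGN had the highest change, at 0.81 ± 0.18 (adjusted p = 0.068), above background on 2 of 3 HH18 arrays. The versican gene VCAN was at 0.14 ± 0.10 and the receptor CD44 at 0.15 ± 0.17. ADAM33, a membrane metalloprotease of mesenchymal cells, read 7.74, 7.81 and 7.26 at HH18 and 6.74, 6.85 and 7.04 at HH20, and fell by 0.73 ± 0.14 (adjusted p = 0.033). PAMR1, a secreted protein with a protease-like domain, read 7.75, 7.63 and 7.76 at HH18 and 7.06, 7.05 and 7.18 at HH20, and fell by 0.62 ± 0.12 (adjusted p = 0.032). The call of ADAM33 was lost when any 1 array other than HH18 replicate 3 was left out (adjusted p up to 0.22), and that of PAMR1 when any 1 of the 6 was (adjusted p up to 0.18). Collagens gave 0 calls by limma among 31, with 5 higher and 2 lower at an unadjusted p under 0.05, and their median of 0.11 turned to -0.01 relative to all genes as deposited.

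TNFSF13B fell the most of all genes. It encodes BAFF, a cytokine of the TNF family known as a survival factor of B cells. It read 6.92, 7.32 and 7.38 at HH18 and 5.90, 5.99 and 6.10 at HH20, after 8.44 ± 0.15 at HH16, so the stages stood in steps with no overlap. The fall from HH18 to HH20 was 1.21 ± 0.14, or 2.31-fold (adjusted p = 0.00072), and no other of 43 genes of the TNF family, FAS, BCL2 and caspases passed. Dimmer probe sets of TNFSF13B were at -0.24 ± 0.18 and -0.17 ± 0.18 and did not pass (adjusted p = 0.75 and 0.84). SH3BGR, a small protein with an SH3-binding region, read 7.43, 7.32 and 7.60 at HH18 and 6.39, 6.55 and 6.43 at HH20. It fell by 0.99 ± 0.14 (adjusted p = 0.0020), from 8.50 ± 0.25 at HH16, again without overlap.

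NR6A1 (GCNF), an orphan nuclear receptor of early embryos that is a target of let-7 microRNAs, read 8.21, 8.11 and 8.40 at HH18 and 7.64, 7.78 and 7.67 at HH20, after 9.24 ± 0.15 at HH16. Its fall of 0.54 ± 0.11 (adjusted p = 0.049) was lost when any 1 of the 6 arrays was left out (adjusted p up to 0.24). Dimmer probe sets of NR6A1 were at -0.17 ± 0.15 and -0.02 ± 0.16 and did not pass (adjusted p = 0.80 and 0.99). The other 18 genes of early embryos and let-7 targets did not pass, among them LIN28B at -0.13 ± 0.19 and HMGA2 at 0.28 ± 0.18. The median of that list was -0.07. IGDCC3, an immunoglobulin-domain membrane protein, read 8.12, 8.16 and 8.32 at HH18 and 7.70, 7.59 and 7.44 at HH20, and fell by 0.63 ± 0.11 (adjusted p = 0.019). STRIP2, a partner of a phosphatase complex that acts on cell shape, read 7.61, 7.37 and 7.34 at HH18 and 6.74, 6.82 and 6.70 at HH20, and fell by 0.69 ± 0.13 (adjusted p = 0.024). Both had non-overlapping stages. IGDCC3 kept its call only without HH18 replicate 1 and STRIP2 only without HH18 replicate 3 (adjusted p up to 0.14 and 0.14 in the other leave-outs).

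The last 2 of the 12 falls were genes with no descriptive name, LOC424577 at -0.80 ± 0.15 (adjusted p = 0.022) and LOC771069 at -0.65 ± 0.12 (adjusted p = 0.025). LOC424577 lost the call without HH18 replicate 2 or any 1 HH20 array (adjusted p up to 0.13), and LOC771069 when any 1 array other than HH18 replicate 1 was left out (adjusted p up to 0.15). With arrays centred on their medians, which puts the median change of all genes at 0.18, 0 of the 12 falls passed.

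Enzymes and carriers made up a further set of rises. FABP6, the bile acid binding protein of the fatty acid binding family, read 8.0, 8.17 and 8.05 at HH18 and 9.04, 8.74 and 9.13 at HH20, after 7.17 ± 0.13 at HH16, and rose by 0.90 ± 0.12 (adjusted p = 0.0018). GSTA4, a glutathione transferase that detoxifies lipid aldehydes, read 7.12, 6.65 and 6.61 at HH18 and 7.46, 7.92 and 7.59 at HH20, and rose by 0.86 ± 0.16 (adjusted p = 0.023). In both genes all arrays of a stage lay above all arrays of the stage before. The other 30 genes of glutathione transferases, peroxidases and fatty acid binding did not pass, and the median of the 32 was 0.05. The call of GSTA4 was lost when any 1 array other than HH18 replicate 1 was left out (adjusted p up to 0.15).

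ASNS, asparagine synthetase, rose alone among 39 genes of amino acid synthesis and the ATF4 response, whose median was -0.06. It read 6.38, 6.33 and 6.68 at HH18 and 7.76, 7.72 and 7.65 at HH20, a rise of 1.24 ± 0.20 or 2.37-fold (adjusted p = 0.0090). Its HH16 arrays read 7.41, 6.46 and 6.44, so the highest of them reached nearer to the HH20 range than any HH18 array did. With the W covariate its change was 0.61 ± 0.19 (adjusted p = 0.33), and the call was also lost without HH18 replicate 2 (adjusted p = 0.050) or any HH20 array. DECR1, an enzyme of fatty acid oxidation, rose by 0.83 ± 0.16 (adjusted p = 0.024), with HH18 arrays at 6.15, 6.15 and 6.13 and HH20 arrays at 6.91, 7.24 and 6.76. FAM3C, a secreted cytokine-like protein, rose by 0.90 ± 0.15 (adjusted p = 0.012), with HH18 arrays at 8.13, 7.98 and 7.95 and HH20 arrays at 9.09, 8.83 and 8.85. Under the W covariate DECR1 stood at 0.47 ± 0.19 and FAM3C at 0.48 ± 0.16, neither past the threshold. DECR1 lost its call when any 1 of the 6 arrays was left out (adjusted p up to 0.16), and FAM3C without HH18 replicate 2, HH20 replicate 1 or HH20 replicate 3 (adjusted p up to 0.095).

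DIO2, the deiodinase that activates thyroid hormone, read 5.50, 5.20 and 5.45 at HH18 and 6.29, 6.20 and 6.32 at HH20, and rose by 0.89 ± 0.14 (adjusted p = 0.0073). EPHX1L, an epoxide hydrolase, rose by 0.86 ± 0.16 (adjusted p = 0.023) from arrays at 5.69, 5.43 and 5.07 to arrays at 6.34, 6.22 and 6.21. The HH18 arrays of EPHX1L spread by more than 0.5 log2 units, yet all lay below the HH20 arrays. DIO2 lost its call without HH20 replicate 1 or 3 (adjusted p up to 0.063), and EPHX1L when any 1 array other than HH18 replicate 1 was left out (adjusted p up to 0.16).

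PLA2G10L, a phospholipase A2 that releases fatty acids from membrane lipids, was near background at HH18. It read 4.61, 4.08 and 4.35 at HH18, where only 1 of 3 arrays lay above background, and 6.48, 5.50 and 6.15 at HH20, where all 3 did. The fitted rise was 1.70 ± 0.21 (adjusted p = 0.00093), and the HH20 arrays were well clear of the HH18 arrays although they spread by almost 1 log2 unit. MEGF10, a receptor by which cells engulf dying neighbours and which lies on Z, read 5.08, 5.12 and 5.34 at HH18 and 6.28, 6.36 and 6.11 at HH20, and rose by 1.07 ± 0.14 (adjusted p = 0.0015). The W covariate left MEGF10 at 1.05 ± 0.21 (adjusted p = 0.057).

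ASTL, a metalloprotease of the astacin family, was above background on 0 of 3 HH18 arrays and 3 of 3 HH20 arrays. The fitted rise was 0.77 ± 0.14 (adjusted p = 0.024). Its HH20 intensity exceeded that at HH18 at least 1.31-fold, a bound taken from the lowest signal above background on each HH18 array and not itself tested. SH2D6, an adaptor protein with an SH2 domain, was above background on 2 of 3 HH18 arrays, and rose by 0.69 ± 0.14 (adjusted p = 0.0496) from arrays at 5.04, 4.78 and 4.96 to arrays at 5.67, 5.49 and 5.68. Both calls were lost when any 1 of the 6 arrays was left out (adjusted p up to 0.16 for ASTL and 0.26 for SH2D6).

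Of the 76 lists, 27 held a called member and 49 held none. Among the larger lists without a call were ubiquitin conjugation with 244 tested genes, solute carriers with 218, cilia with 150, chromatin regulators with 145, zinc fingers with 118 and splicing factors with 116, and their medians lay between -0.03 and 0.02. Limma called 0 of these 991 entries either way, against 0.358% rises and 0.113% falls over all genes, and 6.56% of them had an unadjusted p under 0.05, against 9.91% of all genes. Cell cycle genes gave 0 calls among 71, with a median of -0.01 and 5 at an unadjusted p under 0.05, and the 66 cytosolic ribosomal proteins gave 0, with a median of -0.01 that was -0.11 relative to all genes as deposited. Of 66 mitochondrial ribosomal proteins, 17 were higher at HH20 by sign against 50.2% of all genes, 9 had all HH20 arrays below all HH18 arrays against 7.32%, 0 passed and 4 were lower at an unadjusted p under 0.05. Their median was -0.05, or -0.01 relative to all genes as deposited, and the lowest, MRPL17, was at -0.52 ± 0.13 (adjusted p = 0.11). The 42 genes of respiratory complex I and the 36 of the proteasome had medians of -0.02 and -0.00 and 0 calls each, with 3 and 1 at an unadjusted p under 0.05, all lower.

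Cadherins, SOX factors and forkhead factors held no gene called by limma. Of 28 cadherins and protocadherins, 23 were higher by sign, with a median of 0.12 that was 0.04 relative to all genes as deposited, and 4 had an unadjusted p under 0.05, all higher. SOX factors were higher in 2 of 11, with a median of -0.06, and forkhead factors in 4 of 16, with a median of -0.03. None of these 27 passed, and 0 and 2 had an unadjusted p under 0.05. Slit, Robo and netrin genes had 4 of 18 wholly above and 4 of 18 wholly below, against 8.57% and 7.32% of all genes. Neurotrophin and GDNF family genes had 6 of 29 wholly above and 0 below, with a median of 0.07. That median was 0.03 without HH18 replicate 2 and turned to -0.02 relative to all genes as deposited. The list also counts PDGFA and PTN, growth factors that are neither neurotrophins nor members of the GDNF family. Both were wholly above, at 0.35 ± 0.08 and 0.50 ± 0.17.

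**Figure D5:**
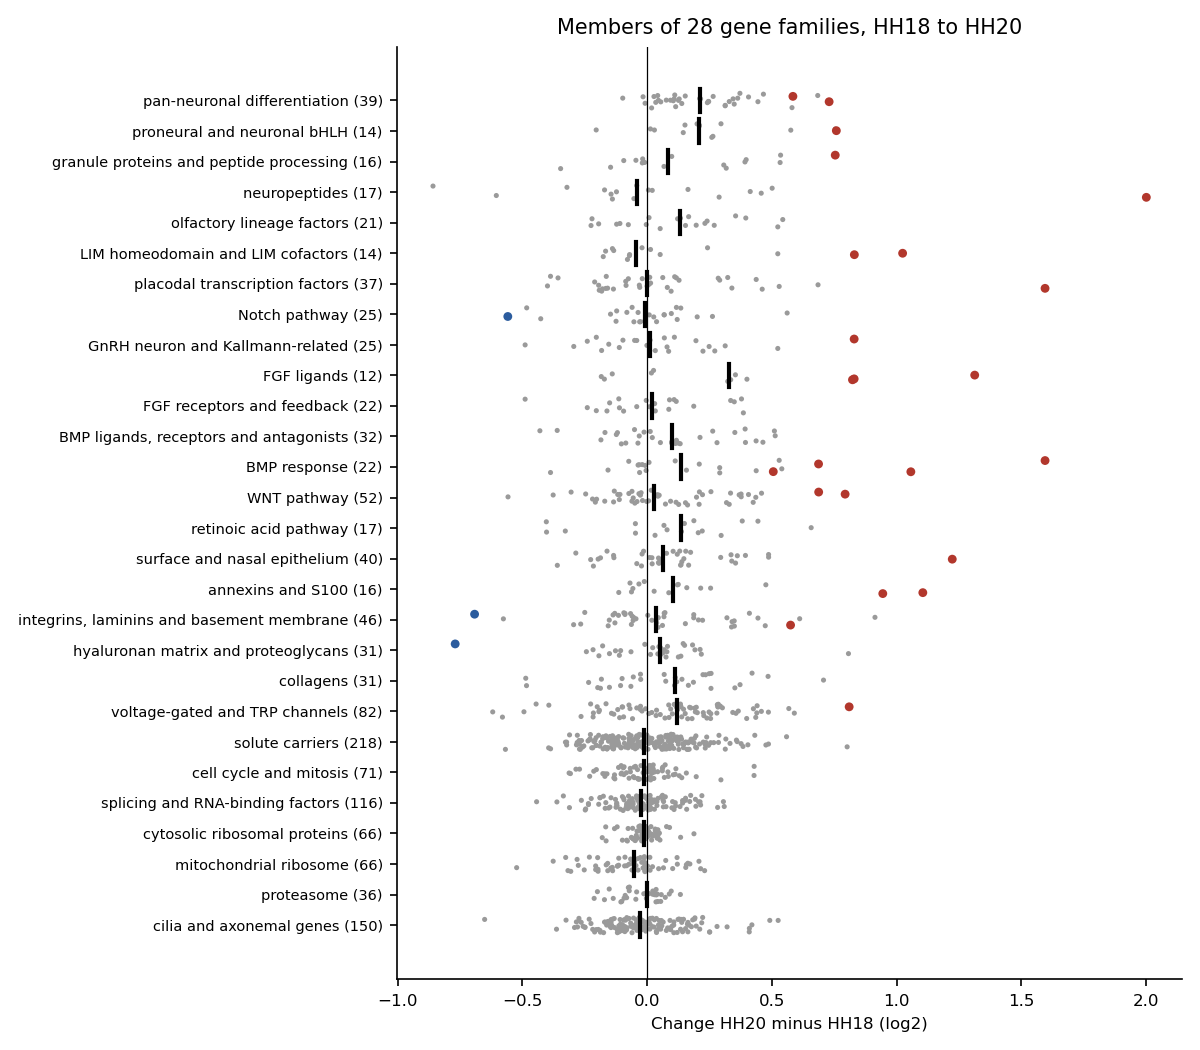
Change HH20 minus HH18 (log2, horizontal axis) of the tested members of 28 families, with the number of members in parentheses. Points are genes, coloured where called, black bars are family medians, and the vertical line marks the median of all genes. Neuronal differentiation and proneural bHLH genes lie almost wholly to the right of the line, and cytosolic ribosomal and proteasome genes form narrow bands on it. Of the 66 mitochondrial ribosomal genes, 17 were higher by sign, and their median was -0.05.

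Markers of other tissues that a dissected placode could hold gave 0 calls by limma among 155 tested list entries. Of these, 21 (13.5%) had an unadjusted p under 0.05, 12 higher and 9 lower, against 9.91% of all genes. The entries are not all particular to other tissues. LHX2 (limma, unadjusted p = 0.0024) and HESX1 are also among the placode markers, and ETS1 and SNAI2 are entered more than once. Erythrocyte markers had a summed intensity of 2623 to 5583 at HH18, the highest of them on HH18 replicate 2, and of 4679 to 5497 at HH20, and 7 of 20, SLC4A1 among them, were not above background on any of the 6 arrays. Blood vessel markers summed to 854 to 1268 and 1186 to 1230, with 5 of 28 not above background, and macrophage and leukocyte markers to 449 to 632 and 549 to 569, with 8 of 23 not above it. Mesenchyme markers summed to 8844 to 10643 at HH18, the highest on HH18 replicate 2, and to 9614 to 10246 at HH20. Of the 39, 27 lay above background on all 6 arrays. By sign, 11 of the 30 tested were higher, against 50.2% of all genes, with a median of -0.09. That median was -0.13 to -0.05 with each array left out, and -0.08 relative to all genes as deposited. Neural crest and glia markers summed to 3946 to 4552 and 4298 to 4567. The ranges of HH18 and HH20 overlapped in each of these 5 lists.

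Lens markers were the exception, with sums of 1204 to 1264 at HH18 and 1295 to 1315 at HH20, ranges that did not overlap, while 9 of the 25, including CRYAA and FOXE3, were not above background. The largest gains in mean intensity, again from normalized levels, were those of CAPRIN2, from 274 to 328, and PROX1, from 376 to 415. CRYBA4, BFSP2, MAFA and MAF were lower by sign. Eye and forebrain markers summed to 2276 to 2455 and 2306 to 2388, and muscle markers to 1177 to 1437 and 1085 to 1207, both overlapping. The part of other tissues in the calls above was not tested.

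Most called genes rest on 1 probe set. Of the 50, 16 had other tested probe sets, and in 4 of them (SST1, FGF3, ISL1 and NOTUM) another one was called in the same direction. In the other 12 none was called, in 0 was one called in the opposite direction, and in 14 of the 16 every other probe set had the same sign. The exceptions were NID1 and SCN2A. A further 9 genes were called only by a probe set that does not represent them and are not counted among the 50. FZD6, a WNT receptor, had a called probe set at 1.15 ± 0.24 (adjusted p = 0.048) but a representative at 0.12, and PDGFA, a growth factor for mesenchyme, had 0.53 ± 0.10 (adjusted p = 0.023) beside 0.35. DACT2, an inhibitor of nodal signalling, had -0.52 ± 0.11 (adjusted p = 0.049) beside -0.32, and CAMK1G, a calmodulin-dependent kinase, had -0.66 ± 0.14 (adjusted p = 0.049) beside -0.55. In SRI, NDUFS1 and COL23A1 the called probe set was lower and the representative was higher by sign, and in DDTL the called one was at -0.83 against -0.19. NDUFS1, of respiratory complex I, had -0.90 ± 0.14 (adjusted p = 0.0085) beside 0.01, from probe sets of similar mean level. The collagen COL23A1 had -0.74 ± 0.15 (adjusted p = 0.044) beside 0.26. The 0 calls given above for complex I and for collagens count representatives only.

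The later step was also tested against the earlier one, HH16 to HH18, with which it shares the HH18 arrays. Of 10616 genes, 2 differed between the steps (0.0188%), and 0 of the 50 genes called from HH18 to HH20 did. For none of the 50 did this test thus show a change that differed from that of the earlier step. From HH16 to HH18, 12 of the 38 rises and 6 of the 12 falls had been called in the same direction. NOTUM had been called in the opposite direction, at -0.49 (limma, adjusted p = 0.038). Its later change minus the earlier one was 1.18 ± 0.22 (limma, adjusted p = 0.077).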

How the data were processed

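Values were analysed from the deposited linear intensity of each probe set, made per the submitters' processing notes with MAS5, whose version and scaling target are not given in the sources used here. Trizol was used to extract total RNA, and NuGEN kits to amplify it and label it with biotin, per the labels' protocols. Summed signals differed between arrays, and no common target was apparent, so log2(intensity + 16) was taken and then quantile normalized over the 9 arrays. A fold change on that scale understates the change of dim genes. Probe sets for viruses (689), controls (96) and reporters (57) were left out, as were gene names for the 177 chicken probe sets with several symbols and the 10350 with none. Symbols were compared with the RefSeq gene table of GRCg7b through Entrez numbers, and 0 changed.

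A linear model with a mean per stage was fitted to all 9 arrays with limma 3.58.1 (lmFit, and eBayes with its trend option) under R 4.3.3, with 6 residual and 11.1 prior degrees of freedom. The contrast HH20 minus HH18 was tested two-sided, and p-values were adjusted by Benjamini-Hochberg over 24489 probe sets with a threshold of 0.05. A second contrast tested the later against the earlier step. The p-values reflect only how far these samples differ among themselves, and the number of arrays limits the precision. No array pair held identical values. Alternatives were other normalizations, pseudocounts of 1 and 64, other filters, the 6 arrays alone, array weights, a replicate block, no intensity trend, a test against a 1.2-fold change, and each array left out.

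Named genes were the 15 largest rises and up to 15 largest falls among called genes, up to 4 called members per list or, in a list with none, up to 2 with the smallest p, a fixed set of 20 genes, of which 1 is not reported here, and members needed to describe the pathways. The other called genes, the genes called only by another probe set and the sex chromosome genes were added after their values were seen. The members and lists were chosen with earlier results of these data known. Gene lists were given as counts and medians beside those of all genes, with no set test.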

Additional observations from a re-analysis of the deposited data

Results flagged for a closer look

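The change of STOM, for the membrane protein stomatin, differed between the steps. It read 8.19, 8.12 and 8.12 at HH18 and 8.17, 8.49 and 8.44 at HH20, a change of 0.22 ± 0.12, after a change of 1.60 from HH16 to HH18. The later change minus the earlier one was -1.37 ± 0.20 (limma, adjusted p = 0.024).

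PDK4, for a kinase that inhibits the pyruvate dehydrogenase complex, was the other gene with such a difference. It read 7.20, 7.18 and 7.42 at HH18 and 7.08, 7.20 and 6.87 at HH20, a change of -0.22 ± 0.14, after 1.51 from HH16 to HH18. The later change minus the earlier one was -1.73 ± 0.24 (limma, adjusted p = 0.024). In both genes the difference rests on the earlier step, and both steps share the HH18 arrays.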

How the results depend on the processing

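Of 88 probe sets called (62 higher, 26 lower), other settings called 10 (10 higher, 0 lower) as deposited, 32 (25 and 7) with no filter on dim probe sets, 142 (102 and 40) with array weights, 43 (36 and 7) without an intensity trend and 15 (13 and 2) in a test against a 1.2-fold change. With arrays centred on their medians, 3 were called lower, and with the mean level of the W genes as a covariate, a setting chosen after seeing the data, 37 were called, 24 higher and 13 lower. Leaving out 1 of the 6 arrays at a time, 23 to 82 were called, 17 to 58 higher and 6 to 24 lower, the fewest without HH20 replicate 3, then HH20 replicate 1 (25), HH20 replicate 2 (34), HH18 replicate 2 (42) and HH18 replicate 1 (56). The causes were not tested, and fewer arrays also leave fewer degrees of freedom. Cyclic loess, a pseudocount of 1 or 64, a 60th percentile filter, the 6 arrays alone and leaving out probe sets shared by several transcripts called 64 to 110, within 1.5 times of 88. No result changed its direction past a threshold under any setting. The sample titles number the replicates but state no pairing. Deviations of same-numbered HH18 and HH20 arrays from their stage means correlated at 0.005, -0.05 and -0.10. Those of differently numbered arrays correlated at -0.09 to 0.12. With 3 arrays per stage, these values cannot decide whether samples were paired. A fit with a replicate block called 74 probe sets, 57 higher and 17 lower, and kept 41 of the 50 genes. Averaging all probe sets of a gene kept 41 of the 50. Precision is limited by 3 arrays per stage and, for dim genes, by signal near background.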
